A study of Homo sapiens and Mus musculus with 20 samples.

Results

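The endoplasmic reticulum (ER) folding and unfolded protein response genes are 38 of the 19974 protein-coding genes on the numbered chromosomes and X. They were chosen by name, as the secretory machinery that plasma cells lean on. They fall into 6 role groups. The groups are 9 chaperones and co-chaperones, 4 disulfide isomerases, 9 genes of the translocon, 9 genes of ER-associated degradation, 5 stress sensors and transcription factors, and 2 secreted stress factors. The data were lists of regions enriched in chromatin immunoprecipitation from human multiple myeloma cell lines, 16 libraries with 1 library a group, so nothing was tested and differences between libraries could not be set against replicate spread. In ARP1 cells, KDM6A was labelled knock out (KO), JmjD-dead (H1146E in the titles) or wild type (WT), and H3K27ac, H3K27me3 and input were profiled in each. H3K4me1 was profiled in a KO library, titled ARP-1E4, and a WT library. A KDM6A antibody was used on ARP1 KO, ARP1 WT and KARPAS WT cells, and an HA antibody on an ARP1 line titled HA-tagged, whose genotype label also reads knock out, and on an untagged ARP1 line labelled WT. The labels do not say whether the KO, JmjD-dead and tagged lines are single clones. Per the labels' protocols cells were fixed with formaldehyde and sonicated, and the bead-bound DNA was tagmented. KDM6A is an X-linked demethylase of H3K27me3 that also belongs to the complexes that write H3K4me1, and the JmjD label names its catalytic domain.

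Plasma cells secrete large amounts of antibody, and each chain enters the ER through the SEC61 channel, is folded by chaperones, and receives its disulfide bonds from the protein disulfide isomerases. Chains that fail to fold are recognised by EDEM proteins and pass through the SEL1L and SYVN1 ligase complex to the proteasome. When unfolded chains build up, the sensors ERN1 (IRE1), ATF6 and EIF2AK3 (PERK) signal to the nucleus, where XBP1, the cleaved ATF6 fragment, ATF4 and DDIT3 (CHOP) raise the expression of many of the other genes named here. ATF6 and XBP1 act in part through a short promoter motif, the ER stress response element.

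RefSeq promoters (GRCh38.p14) were available for 35 of the 38 genes, and a minority of these genes hold an ER stress element. The genes were chosen by name for this response, so the shares below are a description. The classic element, CCAAT and CCACG 9 bases apart on either strand, lay in the promoters of 6 of the 35 genes (HSPA5, HSP90B1, CALR, CANX, PDIA6 and CRELD2), against 25 of the 27305 genes in the table (0.0916%). Its second form, ATTGG, any base and CCACG, lay in 3 (HYOU1, SDF2L1 and HERPUD1), against 19 genes (0.0696%). The core of the unfolded protein response element, TGACGTGG, lay in 4 (HYOU1, SEC62, SSR3 and SSR4), against 253 genes (0.927%), and overlaps the second form in HYOU1. The core of the amino acid response element that ATF4 reads, TGATGNAAN, lay in 1 (HERPUD1), against 1215 genes (4.45%). The searched window ran from 250 bases before to 50 bases after the start, on both strands. A match is a description of letters and not evidence of binding. The 250 bases before the start are printed 5′ to 3′ for 8 of the genes that hold an ER stress element, with the elements in capitals. CANX, which also holds the classic element, is not printed. HA regions of the untagged line overlap the printed stretch at HSPA5, CALR, PDIA6, HYOU1 and HERPUD1, and none overlaps it at HSP90B1, CRELD2 or SDF2L1. The positions are HSPA5 at chr9:125241344-125241593 on the minus strand, HSP90B1 at chr12:103930160-103930409 on the plus strand, CALR at chr19:12938359-12938608 on the plus strand and, for an inner start, PDIA6 at chr2:10812786-10813035 on the minus strand. The others are CRELD2 at chr22:49918384-49918633 on the plus strand, HYOU1 at chr11:119057206-119057455 on the minus strand, SDF2L1 at chr22:21642052-21642301 on the plus strand and HERPUD1 at chr16:56931892-56932141 on the plus strand.
HSPA5: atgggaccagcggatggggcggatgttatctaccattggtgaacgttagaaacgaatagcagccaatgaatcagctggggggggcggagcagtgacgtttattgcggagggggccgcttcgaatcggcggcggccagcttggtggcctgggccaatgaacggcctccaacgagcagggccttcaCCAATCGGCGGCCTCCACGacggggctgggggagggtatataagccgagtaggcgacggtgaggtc
HSP90B1: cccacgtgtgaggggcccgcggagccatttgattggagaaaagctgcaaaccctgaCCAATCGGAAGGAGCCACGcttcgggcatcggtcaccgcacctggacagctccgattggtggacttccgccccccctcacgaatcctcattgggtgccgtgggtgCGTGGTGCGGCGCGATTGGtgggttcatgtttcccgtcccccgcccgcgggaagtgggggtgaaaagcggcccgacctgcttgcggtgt
CALR: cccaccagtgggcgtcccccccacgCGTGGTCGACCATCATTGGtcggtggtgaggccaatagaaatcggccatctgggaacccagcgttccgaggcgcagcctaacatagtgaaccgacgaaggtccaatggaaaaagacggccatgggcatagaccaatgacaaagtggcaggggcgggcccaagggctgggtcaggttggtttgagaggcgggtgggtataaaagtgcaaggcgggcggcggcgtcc
PDIA6: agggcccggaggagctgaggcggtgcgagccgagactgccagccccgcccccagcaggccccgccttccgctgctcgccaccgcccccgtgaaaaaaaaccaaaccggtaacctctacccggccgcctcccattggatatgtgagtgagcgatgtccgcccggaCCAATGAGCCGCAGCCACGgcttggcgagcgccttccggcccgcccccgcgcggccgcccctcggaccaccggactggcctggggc
CRELD2: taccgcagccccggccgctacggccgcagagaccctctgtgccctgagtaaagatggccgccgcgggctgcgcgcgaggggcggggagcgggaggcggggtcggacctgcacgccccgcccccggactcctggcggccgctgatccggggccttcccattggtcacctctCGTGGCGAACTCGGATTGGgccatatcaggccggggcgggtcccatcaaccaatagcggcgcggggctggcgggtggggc
HYOU1: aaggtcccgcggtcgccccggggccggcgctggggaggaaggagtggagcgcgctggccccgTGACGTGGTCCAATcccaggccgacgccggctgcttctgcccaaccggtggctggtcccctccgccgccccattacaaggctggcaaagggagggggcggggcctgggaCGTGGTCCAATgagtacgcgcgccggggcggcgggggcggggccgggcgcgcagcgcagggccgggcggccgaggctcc
SDF2L1: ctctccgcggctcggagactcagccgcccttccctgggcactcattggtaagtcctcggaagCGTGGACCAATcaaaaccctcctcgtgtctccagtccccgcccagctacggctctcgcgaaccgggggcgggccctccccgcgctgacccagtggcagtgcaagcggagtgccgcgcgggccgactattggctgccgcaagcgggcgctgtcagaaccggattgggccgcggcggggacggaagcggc
HERPUD1: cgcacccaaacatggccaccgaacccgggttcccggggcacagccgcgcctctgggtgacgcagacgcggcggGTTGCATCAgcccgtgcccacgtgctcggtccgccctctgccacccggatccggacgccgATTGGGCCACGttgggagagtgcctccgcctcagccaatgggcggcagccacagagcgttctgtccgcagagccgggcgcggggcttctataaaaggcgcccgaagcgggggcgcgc

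A gene was measured over its body and 2.5 kb either side, as the base pairs (bp) covered by regions in that window. The rank of a gene's best region is its place in that library's own list by the authors' −log10 q-value and then fold enrichment, both of which are the authors' values. Ranks are given with the length of the list and are read within it, since lists differ in length. The H3K27ac lists of KO, JmjD-dead and WT cells held 76242, 74063 and 69127 regions over 73.6, 69.9 and 71.0 Mb, from 25.6, 31.2 and 30.8 M fragments. The H3K27me3 lists were shorter, with 11865 (KO), 37236 (JmjD-dead) and 17355 (WT) regions over 5.97, 20.4 and 7.67 Mb, from 6.6, 10.4 and 5.03 M fragments. Windows of 20 of the 38 genes hold part of another protein-coding gene, so that a region there cannot be assigned to 1 of them. All 10 plasma cell markers had an H3K27ac region in each ARP1 genotype, as did 4 of 8 T and NK cell genes, 1 or 2 of 6 myeloid genes and 4 or 5 of 8 epithelial and stromal genes, and the T cell, myeloid and epithelial genes CD3D, CD3G, CD8A, NKG7, CD14, LYZ, MPO, ITGAM, EPCAM and KRT19 had none in any. The KDM6A gene itself was covered by 11745 bp of H3K27ac regions in KO, 9339 bp in JmjD-dead and 9699 bp in WT cells, which does not show whether the protein is made. In 3 windows (PDIA6, SSR2 and ATF6) the genome around the gene is dense in regions: these lie in 1 Mb bins with over 10 times the median number of regions in at least 1 KDM6A or HA list.

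The KO library of H3K4me1 and the untagged HA library stand apart from the others, and the results that rest on them are given with the values of both libraries.

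All 38 genes carried H3K27ac regions in KO, in JmjD-dead and in WT cells, against 71.3%, 69.3% and 69.0% of all protein-coding genes. H3K4me1 regions were listed at 27 genes in KO (71.1%) and at all 38 in WT cells, against 52.9% and 73.0% of genes. H3K27me3 regions lay at 14 genes in KO (36.8%), 26 in JmjD-dead (68.4%) and 15 in WT cells (39.5%), against 18.2%, 37.6% and 25.1% of genes, so the share was above that of all genes in each list. The ER genes were thus marked by both active marks in WT ARP1 cells without exception, and 67 other ER pathway genes (signal peptidase, oligosaccharyltransferase, cargo receptors and the like) were as well. KDM6A antibody regions lay at 9 genes (23.7%) in ARP1 KO, 11 (28.9%) in ARP1 WT and 17 (44.7%) in KARPAS cells, against 11.4%, 29.6% and 44.4% of genes. The WT and KARPAS shares are near the background, and only the KO share stands above it. HA regions lay at 16 genes (42.1%) in the tagged and 25 (65.8%) in the untagged line, against 36.4% and 29.3%. Input regions lay at 5 genes in KO, 1 in JmjD-dead and 2 in WT cells, against 17.1%, 5.45% and 8.29% of genes.

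**Figure D1:**
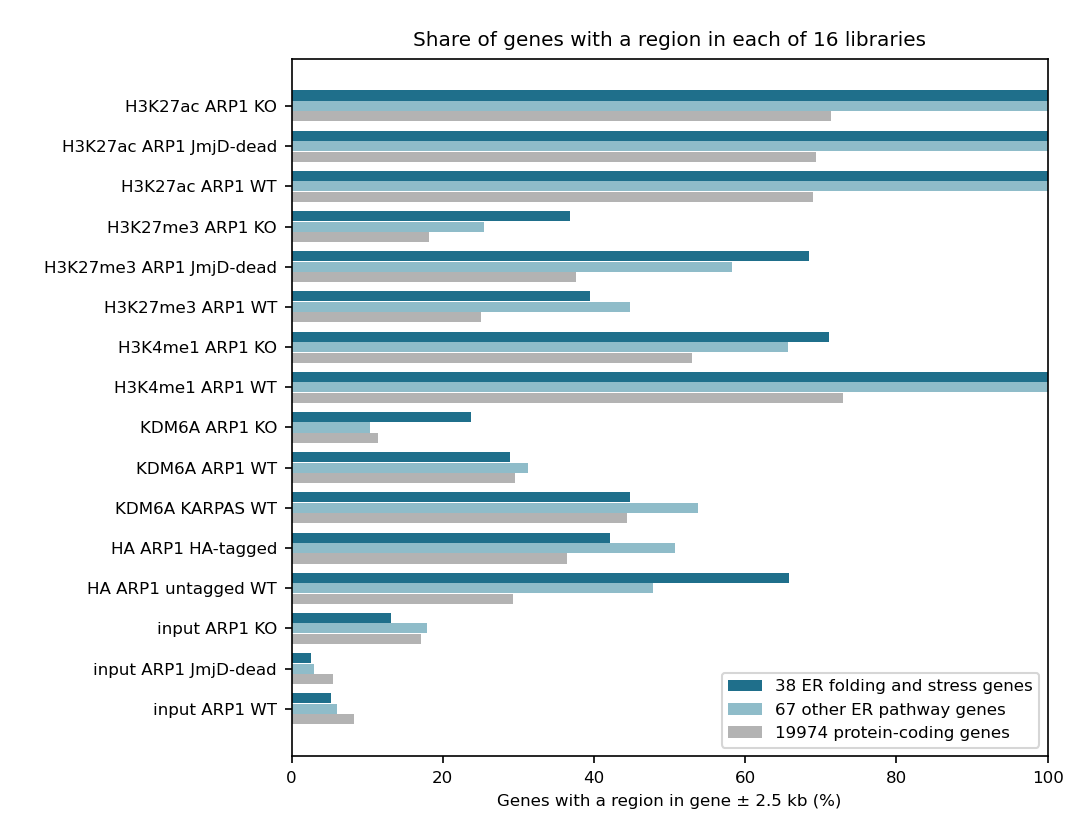
Share of genes (%, horizontal axis from 0) with a region in the gene or 2.5 kb either side, for each of the 16 libraries, for the 38 ER folding and stress genes (dark), 67 other ER pathway genes (light) and all 19974 protein-coding genes (grey). H3K27ac reaches 100% of the 38 genes in KO, JmjD-dead and WT cells, while KDM6A regions in ARP1 WT cells reach 28.9% of them and 29.6% of all genes.

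H3K27ac at these genes ranked high. The best region of 34 of the 38 genes in KO, 33 in JmjD-dead and 34 in WT cells lay in the top 10% of its list, as it did for 35.9%, 33.2% and 31.3% of all genes. The median best rank was 3505.5 of 76242 in KO, 3744.5 of 74063 in JmjD-dead and 3593 of 69127 in WT cells. Among genes that had any region it was 7550 in KO, 7857 in JmjD-dead and 7866 in WT cells. An H3K27ac region covered the start of 33 genes in KO, 32 in JmjD-dead and 34 in WT cells, of the 35 with a placed start. The share of starts covered over all genes was not counted for H3K27ac, so these counts have no background beside them. The start of ERN1 lay outside regions in KO and JmjD-dead cells and that of SEL1L in JmjD-dead cells. CRELD2, a secreted stress factor of the ER, was uncovered at its start in all 3 genotypes, and its best region ended within the printed promoter. Its best region lay at chr22:49917488-49918499 in KO, chr22:49917639-49918510 in JmjD-dead and chr22:49917633-49918512 in WT cells.

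In base pairs, ERN1 had the most H3K27ac at these genes in each genotype. ERN1, the IRE1 kinase and RNase at chr17:64039142-64130144, was covered over 37736 bp in KO, 37432 bp in JmjD-dead and 43676 bp in WT cells, which placed it 64th, 51st and 43rd of 19974 genes in those libraries. SEL1L, the scaffold of the degradation complex at chr14:81471547-81533853, had 25592, 28844 and 24239 bp in KO, JmjD-dead and WT cells. EDEM3, a mannosidase-like lectin that marks misfolded glycoproteins, had 22809, 24234 and 23468 bp in the same libraries. These windows are long, and coverage took 39.3% (KO), 39.0% (JmjD-dead) and 45.5% (WT) of that of ERN1. As a share of its window the lectin chaperone CALR had more, with 77.6% in KO, 77.4% in JmjD-dead and 64.0% in WT cells, and so did ATF4, with 70.6%, 66.9% and 65.2%. PDIA6, a disulfide isomerase in a dense bin, had 24043, 15881 and 17247 bp in KO, JmjD-dead and WT cells. At the other end SEC62, a translocon partner for post-translational entry, had 1416, 1331 and 1360 bp, all of it 1 region in each library. The chaperone HSPA5 (BiP) was covered over 3581 bp in KO, 2605 bp in JmjD-dead and 2700 bp in WT cells. Its best region lay just upstream of or at the far end of the printed promoter, at chr9:125241588-125242590 in KO, chr9:125241607-125242650 in JmjD-dead and chr9:125241583-125242605 in WT cells, and a further region covered the start in each.

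Between KO and WT cells, H3K27ac coverage at these genes barely moved. All 38 genes had at least 500 bp in 1 of the 2 libraries; 3 were longer in KO by at least 1.5 times and 1 was shorter, against 12.8% longer and 6.19% shorter among 13533 genes. The median log2 ratio was 0.12 for the 38 genes and 0.13 for all. No gene had a region in 1 of the libraries only, a state that 3.83% (KO only) and 1.49% (WT only) of genes showed. Both shares of the 38 genes lie near or below the background.

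The gene with shorter coverage was HERPUD1, an ER membrane protein of the degradation complex at chr16:56932142-56944864. Its regions spanned 7052 bp in KO cells, 6574 bp in the JmjD-dead line and 11842 bp in WT cells (log2 ratios of -0.74 and -0.84). Both mutants share the WT library, so the 2 ratios are not independent. The best region still covered the start in all 3, at chr16:56930790-56933585 in KO, chr16:56930869-56933570 in JmjD-dead and chr16:56930858-56935529 in WT cells, and its rank was 2838 of 76242, 3891 of 74063 and 1859 of 69127. Over the gene ends alone HERPUD1 did not pass 1.5 times in either mutant.

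EDEM1, a further EDEM lectin and a target of XBP1, was covered over 8887 bp in KO, 4069 bp in JmjD-dead and 5431 bp in WT cells. KO thus stood highest and JmjD-dead lowest. Its best region ranked 1963 of 76242 with a fold of 60.3 in KO, 9967 of 74063 with 27.1 in JmjD-dead and 4145 of 69127 with 48.0 in WT cells. SEC61G, the gamma subunit of the channel, had 4207 bp in 4 regions in KO, 2314 bp in 1 region in JmjD-dead and 2637 bp in 1 region in WT cells. CRELD2 had 2770, 1881 and 1709 bp in KO, JmjD-dead and WT cells, in a window shared with ALG12. The calls of SEC61G and CRELD2 ended at equal list lengths and under a stricter q-value, that of CRELD2 also with 10 kb either side and with a 500 bp pseudocount, and those of SEC61G and EDEM1 over gene ends alone. The TRAP subunit SSR2 passed as longer under the stricter q-value, and PDIA6 over gene ends.

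The remaining genes stayed within 1.5 times of WT in KO cells. By role, the median log2 ratio of KO over WT was 0.16 for the chaperones, -0.02 for the disulfide isomerases, 0.14 for the translocon, 0.08 for degradation and -0.21 for sensors and factors. The 2 secreted factors, MANF and CRELD2, had a median of 0.44. The next largest ratios were those of PDIA6 (0.48), SDF2L1 (0.38), DERL2 (0.38) and DNAJC3 (0.37) above 0, and of PDIA3 (-0.41), EDEM2 (-0.18) and DERL3 (-0.15) below 0. Among chaperones HSPA5 had a ratio of 0.39, DNAJB9 (an HSPA5 co-chaperone that restrains IRE1) 0.16, and HSP90B1 (GRP94) -0.03. All 3 stress sensors had less coverage in both mutants than in WT cells: ATF6 had 9546 (KO) and 8249 (JmjD-dead) bp, against 11503 bp in WT cells. EIF2AK3 had 7962 (KO) and 9158 (JmjD-dead) bp, against 10653 bp in WT cells. The log2 ratios in KO cells were -0.27 for ATF6, -0.42 for EIF2AK3 and -0.21 for ERN1, none past 1.5 times. Among all measured genes, KO coverage fell below WT coverage at 4430 of 13533. For JmjD-dead this was the commoner direction, with 7117 genes below and 6055 above WT among 13220. Each sensor's values are set against the same WT library, so its lower coverage in one mutant does not independently repeat that in the other. ATF4, the factor made when PERK slows translation, had 5032 bp in KO, 4772 bp in JmjD-dead and 4647 bp in WT cells. Its target DDIT3 had 4158, 3904 and 4496 bp in those libraries, in a window shared with MARS1, MBD6 and a further gene.

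Fewer of these genes passed 1.5 times in JmjD-dead than in KO cells, and so did fewer of all genes. HERPUD1 was the 1 gene past 1.5 times, shorter, with 0 longer, against 6.9% shorter and 5.89% longer among 13220 genes. Over gene ends alone HERPUD1 was not called and PDIA6 was longer. The median log2 ratio was -0.1 for the 38 genes and -0.02 for all. The median of the 38 genes less that of all genes was -0.08, against -0.01 in KO cells. No gene was marked in 1 library only, against 2.23% (JmjD-dead only) and 1.87% (WT only) of genes. The next largest ratios were those of ATF6 (-0.47), EDEM1 (-0.41), SEC61A1 (-0.36, the channel's pore subunit), MANF (-0.36, a secreted stress factor), SSR3 (-0.3), PDIA3 (-0.28) and EDEM2 (-0.24). Above 0 they were CALR (0.27), SEL1L (0.25), P4HB (0.23) and DERL3 (0.17).

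**Figure D2:**
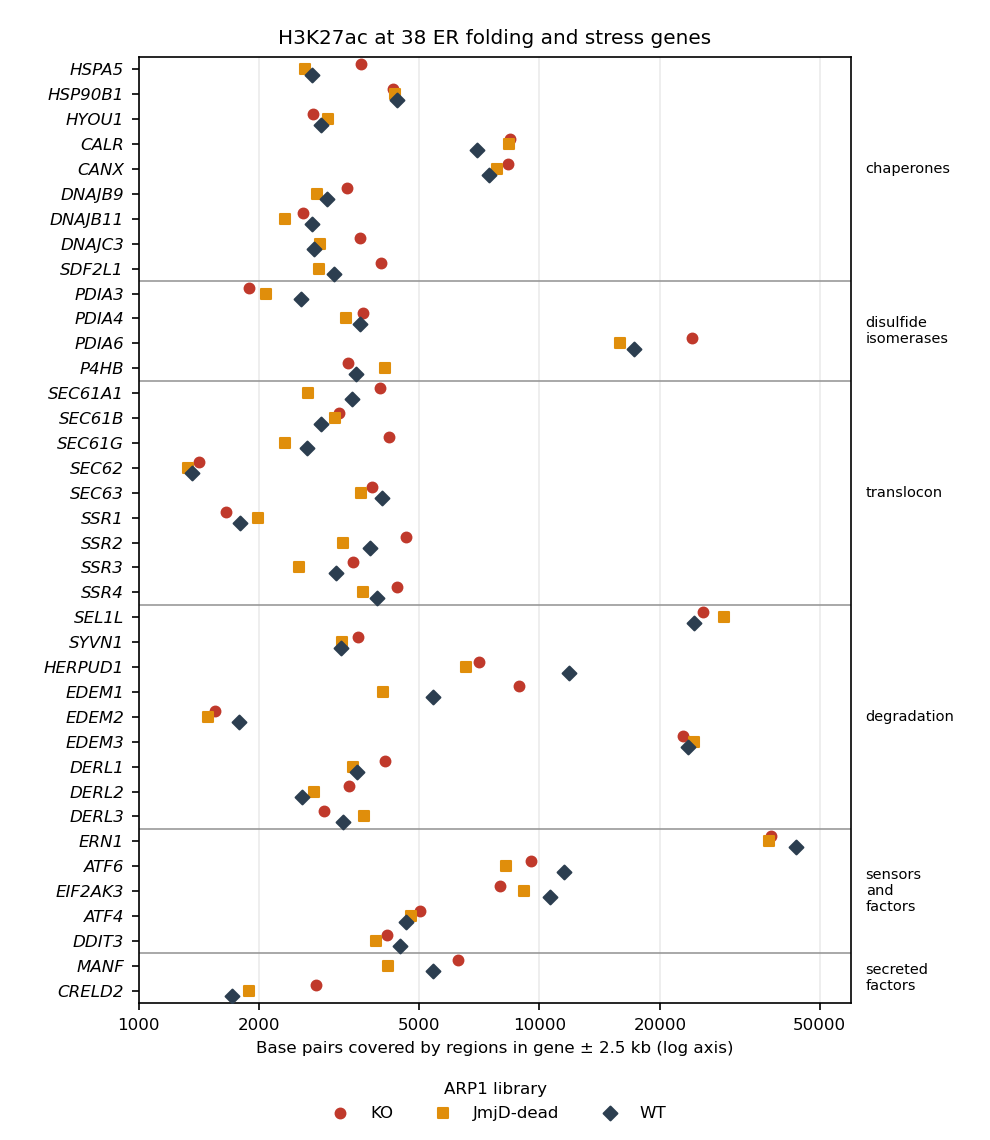
Base pairs covered by H3K27ac regions (log axis) at each of the 38 genes, grouped by role, with 1 point each for the KO, JmjD-dead and WT library of ARP1. The 3 points lie close together at most genes; at HERPUD1 the KO and JmjD-dead points (7052 and 6574 bp) lie left of WT (11842 bp), and at EDEM1 KO lies right (8887 bp).

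Of the 67 other ER pathway genes, 5 were longer and 2 shorter in KO than in WT cells, and 1 longer and 2 shorter in JmjD-dead than in WT cells. The largest ratios in KO were those of DDOST, an oligosaccharyltransferase subunit, with 3665 bp in KO against 1962 bp in WT cells, and PPIB, a prolyl isomerase, with 5273 bp in KO against 3089 bp in WT cells. WFS1, an ER membrane protein, had 1255 bp in KO against 2800 bp in WT cells.

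H3K4me1 coverage, in contrast, was lower in the KO library at nearly every gene. Of 38 genes 0 were longer and 36 shorter by 1.5 times, against 6.93% and 86.7% of 14046 genes, so the shorter coverage was general and not particular to these genes. The median log2 ratio was -3.34 for the 38 genes and -2.93 for all. Regions were listed in WT only at 11 genes and in KO only at 0, against 26.9% and 6.81% of genes. In KO the start of 1 gene of 35, that of the isomerase PDIA4, lay in a region, against 35 of 35 in WT cells. Starts covered by H3K4me1 were not counted over all genes, so this contrast is not read as particular to these genes.

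The KO library stands apart in strength as well as length. The best region of each marked gene had a fold of 3.17 to 6.33 in KO, with a median of 4.52, and of 21.5 to 183 in WT cells, with a median of 48.0. The lists held 80845 regions over 37.9 Mb from 25.6 M fragments in KO, and 95729 regions over 71.8 Mb from 34.0 M in WT cells. Whether genotype or library quality goes with this cannot be told apart with 1 library each. Scaling by total covered length moved the median of all genes to -2.17, and that of the 38 genes to -2.66.

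The 11 genes without a KO region spanned the roles. HSPA5 had 0 bp in KO against 2372 bp in WT cells, and DNAJB9 had 0 bp against 2789 bp. The isomerase PDIA3 had 0 bp against 2286 bp, and ATF4 0 bp against 4540 bp. EDEM3 had 0 bp in KO against 18669 bp in WT cells, the longest WT coverage among the 11, and HERPUD1 0 bp against 6077 bp. The other 5 were SEC61G, SEC62, SEC63 (an HSPA5 recruiting partner of the channel), SSR1 and SSR4 (subunits of the translocon-associated TRAP complex), with 0 bp in KO against 1434 to 4080 bp in WT cells. XBP1, outside the 38 genes, had 0 bp in KO against 11010 bp in WT cells.

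The 2 exceptions were HYOU1, a large chaperone, with 2763 bp in KO against 2782 bp in WT cells, and the TRAP subunit SSR2, with 2109 bp in KO against 2391 bp in WT cells. Both lie in bins crowded with regions in the KO list, at 35.4 and 60.8 times its median bin. Their part in the result was not tested beyond these counts. At HYOU1 the KO coverage was made of 8 regions, the best with a fold of 6.33, where WT cells had 3 regions and a best fold of 46.2. Scaled for covered length, HYOU1 and SSR2 passed 1.5 times as longer in KO. ERN1 kept the most coverage in KO, with 14118 bp in 44 regions, against 34056 bp in 24 regions in WT cells, and its bin held 13.7 times the median.

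**Figure D3:**
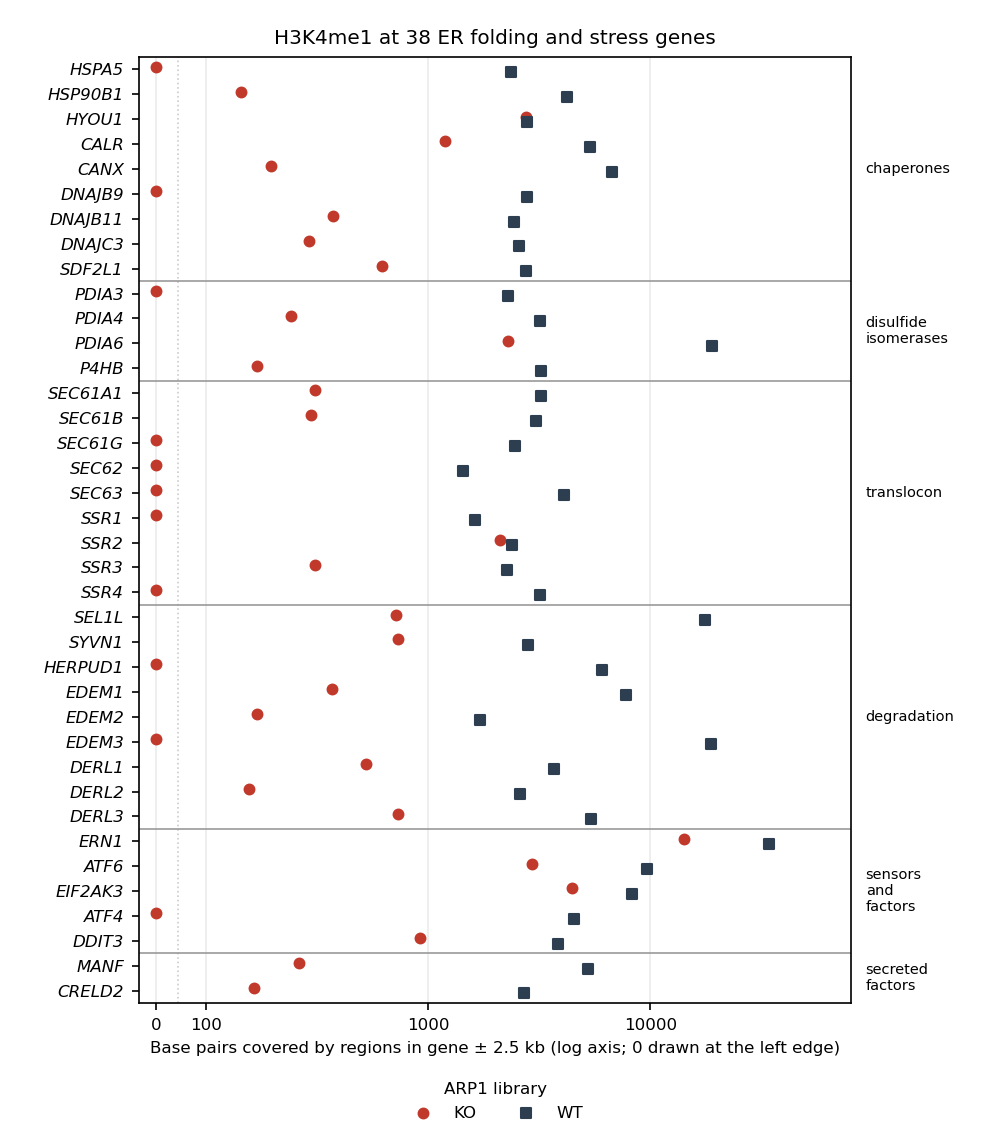
Base pairs covered by H3K4me1 regions (log axis, with 0 drawn at the left edge) at each of the 38 genes in the KO (circles) and WT (squares) libraries of ARP1. The KO points lie left of WT, 11 of them at 0, and meet WT only at HYOU1 (2763 and 2782 bp) and SSR2 (2109 and 2391 bp).

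H3K27me3 regions were listed at these genes more often than at all genes, but most were short, and the median gene had 0 bp in KO, 354 bp in JmjD-dead and 0 bp in WT cells. The most covered gene in each genotype was PDIA6, with 9007 bp in KO, 24721 bp in JmjD-dead and 11225 bp in WT cells. Its 1 Mb bin held 37.0, 46.7 and 29.5 times the median number of regions in those lists, and PDIA6 also had input regions (272 bp in KO, 159 bp in WT cells). Of the H3K27me3 regions at the 38 genes, 26 of 30 in KO (86.7%), 48 of 83 in JmjD-dead (57.8%) and 27 of 42 in WT cells (64.3%) overlapped an H3K27ac region of the same genotype. Among all H3K27me3 regions these shares were 70.8%, 50.6% and 64.4%. Best folds at the marked genes were 4.76 to 9.52 in KO, 3.37 to 10.7 in JmjD-dead and 3.7 to 14.0 in WT cells.

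Between KO and WT cells, 9 genes had at least 500 bp of H3K27me3 regions in 1 library. A gene that reaches 500 bp only in the library where it is high had to differ, here and for the KDM6A and HA antibodies, so these counts are read only beside those of all genes. Of the 9, 3 were longer (CALR, ATF4 and CRELD2) and 5 shorter (SDF2L1, SSR2, HERPUD1, ATF6 and EIF2AK3), against 24.8% and 55.2% of 2514 genes. ATF4 had 719 bp in KO and 0 bp in WT cells, CRELD2 had 866 bp and 0 bp, and CALR had 952 bp and 521 bp. HERPUD1 had 0 bp in KO and 1212 bp in WT cells, EIF2AK3 0 bp and 807 bp, and ATF6 0 bp and 719 bp. SDF2L1, a partner of HSPA5 and its co-chaperones, had 349 bp in KO and 989 bp in WT cells, and SSR2 had 200 bp and 1080 bp.

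Regions lay in KO only at 5 genes (DNAJC3, PDIA3, SEC63, ATF4 and CRELD2) and in WT only at 6 (HSPA5, SSR3, SEL1L, HERPUD1, ATF6 and EIF2AK3), against 7.11% and 14.0% of genes. DNAJC3 is a co-chaperone that also inhibits PERK. The median log2 ratio was -1.28 for the 9 genes and -0.83 for all. Scaled by total covered length the median of all genes moved to -0.24, the longer share of all calls moved to 45.4%, against 31.0% as called, and 4 of the 38 genes were longer and 5 shorter. The direction turned at a −log10 q of at least 5, with 65.0% of all calls longer and a median of 0.73 over all genes, and 1 of 2 measured genes of the 38, ATF4, was longer. Over gene ends alone 48.4% of all calls were longer, the median of all genes was 0.03, and 3 of the 38 genes were longer and 3 shorter.

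In JmjD-dead cells coverage was longer, as it was across the genome, in a list with more fragments and regions. Of 16 genes measured 12 were longer and 0 shorter than in WT cells, against 71.6% and 10.3% of 4396 genes. Regions lay in JmjD-dead only at 13 genes and in WT only at 2 (SSR3 and DDIT3), against 18.6% and 6.13% of genes. Of the 13, 8 had under 500 bp (DNAJB11, DNAJC3, SEC61B, SYVN1, EDEM1, ATF4, MANF and CRELD2), with 212 bp (EDEM1) to 426 bp (CRELD2). The 12 longer genes were HSP90B1, HYOU1, CALR, PDIA3, PDIA6, P4HB (the archetypal protein disulfide isomerase), SEC63, SSR2, SEL1L, DERL1, DERL3 and ERN1. HSP90B1 had 782 bp in JmjD-dead and 0 bp in WT cells, DERL1, a rhomboid-like channel protein of degradation, 2198 bp and 377 bp, and ERN1 2036 bp and 311 bp. HERPUD1 had 1174 bp in JmjD-dead and 1212 bp in WT cells, where the KO list held none.

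The direction in JmjD-dead cells depends on the scale. As called, longer genes made up 87.4% of all calls. Scaled by total covered length they made up 28.7%, the median of all genes was -0.63, against 1.3 as called, and among the 38 genes 2 were longer (DERL1 and ERN1) and 4 shorter (SDF2L1, HERPUD1, ATF6 and EIF2AK3). At equal list lengths the share was 57.9%, with 6 of the 38 genes longer and 3 shorter. Median log2 ratios of the 38 genes' measured members, less those of all genes, were -0.08 as called, 0.44 at equal list lengths and 0.36 scaled.

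**Figure D4:**
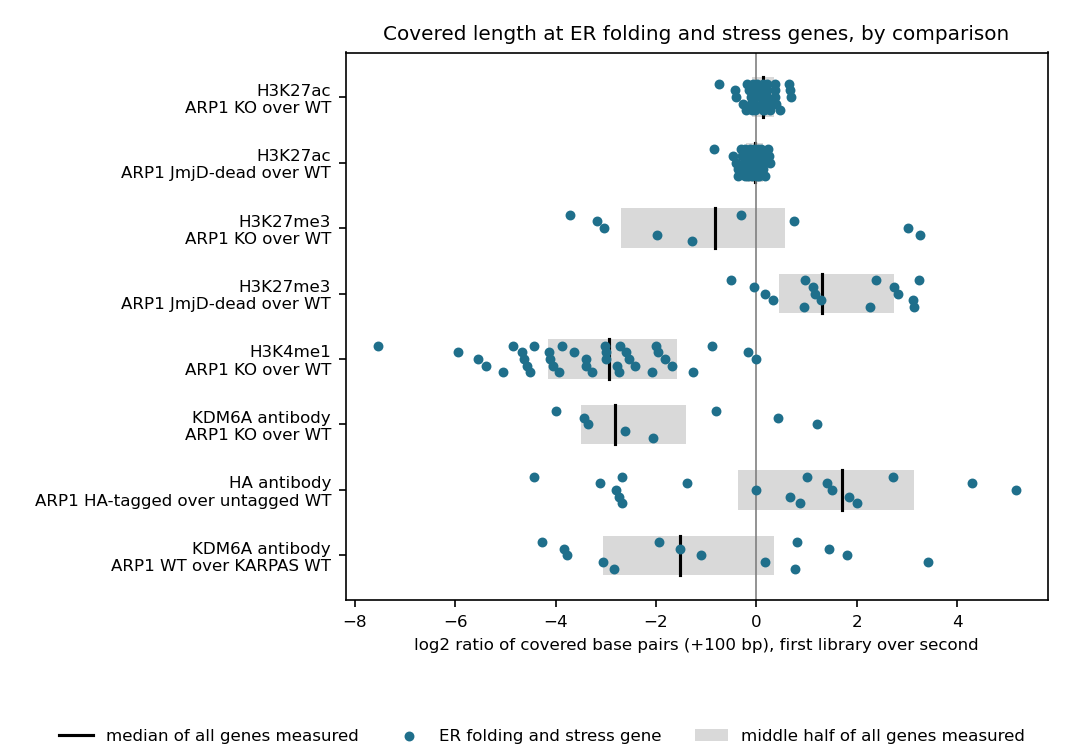
Log2 ratio of covered base pairs (100 bp added to each) in the 8 comparisons, 1 point per ER folding and stress gene with at least 500 bp in either library, over the middle 50% (grey bar) and the median (black line) of all genes measured. H3K27ac points sit close to 0 (medians 0.12 and -0.1), and H3K4me1 points spread around -3.34. The median of the 38 genes' points lies below that of all genes except for the KDM6A antibody. The values are 0.78 and 1.71 for HA, -1.28 and -0.83 for H3K27me3 in KO, and -3.34 and -2.93 for H3K4me1. For KDM6A they are -2.34 and -2.81 (KO over WT) and -1.31 and -1.53 (ARP1 over KARPAS).

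The KDM6A antibody gave few regions at these genes, and the KO library serves as its control. KO regions lay at 9 genes and WT regions at 11. With at least 500 bp in 1 library, 8 genes were measured, 1 was longer and 6 were shorter in KO, against 8.31% and 84.8% of 3479 genes. Regions lay in KO only at HYOU1 and SSR2 and in WT only at 4 genes (SDF2L1, SEC63, SEL1L and EDEM3), against 2.08% and 20.4% of genes. SEL1L had 0 bp in KO and 1499 bp in WT cells, EDEM3 0 bp and 978 bp, and SEC63 0 bp and 516 bp. PDIA6 had 359 bp in KO and 4617 bp in WT cells, DNAJC3 235 bp and 1296 bp, and ERN1 849 bp and 1568 bp. Scaled by total covered length, longer genes moved to 20.2% of all calls, against 8.92% as called, and 3 of the 38 genes were longer and 5 shorter. The KO list held 44936 regions over 23.2 Mb from 20.2 M tags and the WT list 90964 over 44.8 Mb from 11.9 M, so the deeper library had the shorter list.

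Some KDM6A regions were listed in the KO library as well. HSP90B1 had 626 bp in KO and 213 bp in WT cells, upstream of the start. The regions lay at chr12:103928548-103929173 in KO and chr12:103929032-103929244 in WT. The same place held a region in KARPAS and in the HA-tagged line. The KARPAS and tagged regions also overlapped an HA region of the untagged line, at chr12:103929332-103929634, which the KO and WT regions did not. A region at PDIA3, chr15:43749845-43750178 in WT cells, was the second best placed at these genes in WT and was listed in KO as well (rank 10928 of 44936 in KO and 8237 of 90964 in WT cells). ATF6 had 1697 bp in KO and 1226 bp in WT cells, and its bin held 28.5 times the median of the KO list and 4.09 times that of the WT list. None of the 7 KO regions in ATF6 overlapped a WT region.

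WT regions with no overlapping KO region marked 8 of the 38 genes (DNAJC3, SDF2L1, PDIA6, SEC63, SEL1L, EDEM3, ERN1 and ATF6), against 27.5% of all genes, and 19 of the 67 other ER pathway genes (28.4%). The genes were thus not marked beyond the background. Of all WT KDM6A regions at these genes, with or without a KO region, 38 had a placed start. Of these 0 covered it and 2 lay within 1 kb of it, and many of the 38 lay in PDIA6, in a dense bin. The share over all KDM6A regions was not counted, so this is not read as a trait of these genes. Of the 39 WT regions, 29 (74.4%) overlapped a WT H3K27ac region, against 24.0% of all KDM6A regions in the WT list, in windows that H3K27ac covers at every gene.

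The HA antibody marked fewer of these genes in the tagged line than in the untagged control, 16 against 25. The lists held 54338 regions over 24.7 Mb from 25.3 M tags in the tagged line and 78725 over 36.4 Mb from 16.6 M in the untagged line. Of 18 genes measured, 10 were longer and 7 shorter in the tagged line, against 64.6% and 22.7% of 5461 genes. Regions lay in the tagged line only at SSR1, SEL1L, DERL3 and ATF6, against 18.3% of genes. They lay in the untagged line only at 13 genes (HSPA5, HYOU1, CANX, DNAJB9, DNAJC3, SDF2L1, PDIA3, SEC61A1, SEC61B, SEC61G, SSR2, EDEM2 and MANF), against 11.1% of genes.

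By role, 4 of 5 measured sensors and factors and 3 of 3 degradation genes were longer in the tagged line. Shorter there were 4 of 5 chaperones and 3 of 4 translocon genes, against 64.6% longer and 22.7% shorter of all genes. The groups are small and differ in gene length. ATF6 (197751 bp), ERN1 (91003 bp) and SEL1L (62307 bp) had longer coverage, and HSPA5 (6491 bp), CALR (5881 bp) and SEC61G (6959 bp) shorter. DDIT3 (3930 bp) and DNAJC3 (117850 bp) went the other way. Role was not tested apart from gene length. The median log2 ratio was 0.78 for the 18 genes and 1.71 for all.

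CALR had 295 bp in the tagged and 934 bp in the untagged line.

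The untagged line had HA regions at more starts of these genes. Of tagged regions at these genes 4 of 68 with a placed start covered it and 9 lay within 1 kb. Of untagged regions 18 of 64 covered it and 32 lay within 1 kb. Among all HA regions, those outside genes included, 1.84% (tagged) and 2.02% (untagged) lay on a start. The start of 3 genes in the tagged line (PDIA6, ATF4 and DDIT3) and of 17 genes in the untagged line lay in an HA region, which is 8.57% and 48.6% of the 35 placed starts. Among all 15812 genes with a placed start these shares were 6.55% and 10.6%. In the untagged line ATF4 had the best placed region, rank 651 of 78725 with a fold of 18.4, PDIA6 had rank 1917 at chr2:10812248-10813398, HERPUD1 rank 2587 at chr16:56931950-56932359, and HSPA5 rank 4680 at chr9:125241159-125241517. These PDIA6, HERPUD1 and HSPA5 regions lie on the promoters printed above, elements included, in a line without the tag.

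In the tagged line the best placed region lay inside EIF2AK3, at chr2:88606436-88607169, with rank 1439 of 54338 and a fold of 17.1, centred 20661 bp from the start. The same place held KDM6A regions in ARP1 KO (rank 43874 of 44936), ARP1 WT (rank 88608 of 90964) and KARPAS (rank 15985 of 55867) cells. The next was inside ATF6, at chr1:161805660-161806321, with rank 1767 and a fold of 15.7. Tagged regions with no untagged region marked 13 of the 38 genes, against 32.6% of all genes, and 31 of the 67 other ER pathway genes (46.3%). The 13 were HSP90B1, PDIA6, SEC63, SSR1, SEL1L, HERPUD1, EDEM1, EDEM3, DERL3, ERN1, ATF6, EIF2AK3 and DDIT3. Among them were SEL1L with 3491 bp in the tagged and 0 bp in the untagged line, ERN1 with 3261 and 742 bp, EDEM3 with 2341 and 761 bp, and EIF2AK3 with 1911 and 204 bp.

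Requiring both kinds of control left 6 genes. Of 33 WT KDM6A regions at these genes with no KO region, 15 (45.5%) also met a tagged HA region and no untagged one, against 16.4% of the 63118 such regions in the genome. They lay at PDIA6, SEC63, SEL1L, EDEM3, ERN1 and ATF6, 6 of 38 genes against 15.7% of all genes. The criterion was set after the values were seen. By gene the share was thus near the background. The share by region counts several regions of the same gene apart, as at SEL1L, EDEM3 and ERN1. Its background takes in regions outside genes, so the higher share by region is not read as a trait of these genes. Of the 15 regions 14 overlapped WT H3K27ac and 4, at SEL1L and ERN1, also a KARPAS region. One of them was chr17:64121252-64121538 in ERN1, rank 28883 of 90964, centred 8749 bp inside the gene. At SEL1L chr14:81471009-81471663 ranked 12577 of 90964, lay at the far end of the gene 62517 bp from the start, and met a KARPAS region of rank 10903 of 55867.

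**Figure D5:**
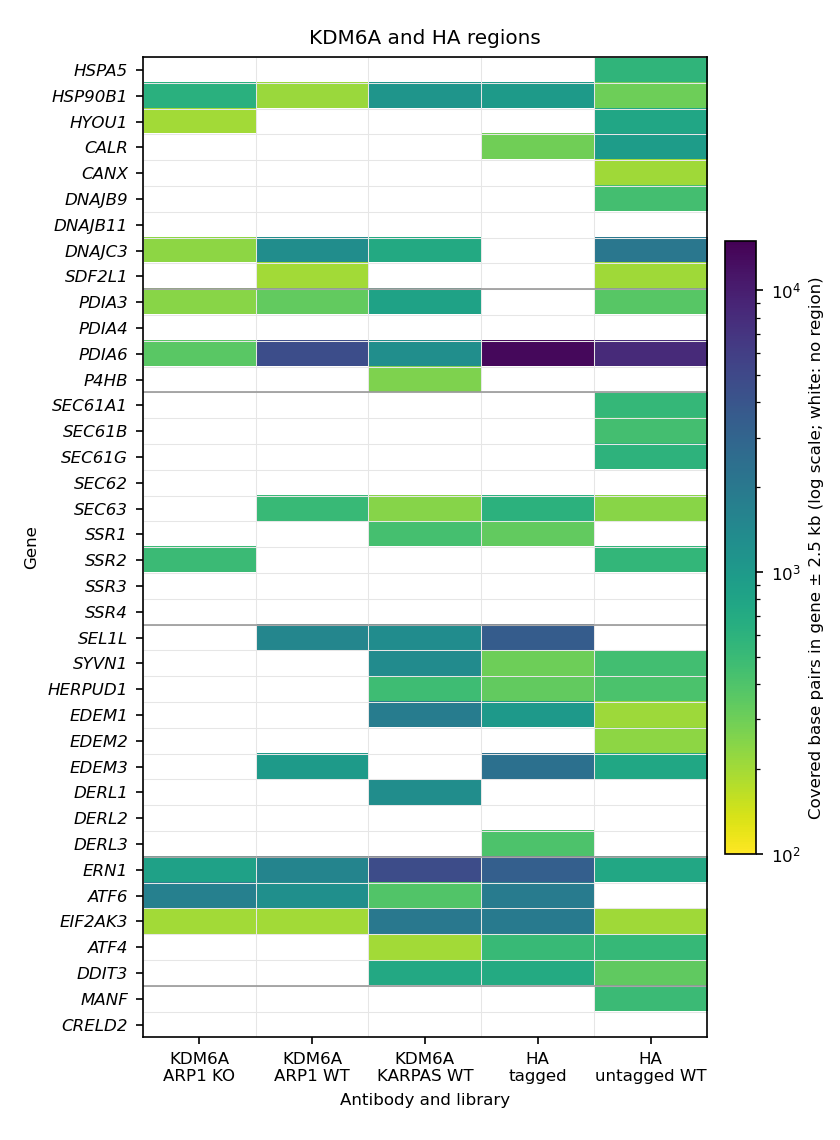
Base pairs covered (colour, log scale; white where no region was listed) at each of the 38 genes in the KDM6A libraries of ARP1 KO, ARP1 WT and KARPAS WT cells and in the HA libraries of the tagged and the untagged line. HSP90B1, PDIA6, ERN1 and EIF2AK3 are coloured in all 5 columns, 7 genes in none, and the untagged column has the most coloured cells (25).

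Between ARP1 WT and KARPAS cells the KDM6A lists overlapped at these genes about as they did at all genes. Both marked 9 genes, which is 81.8% of the 11 in ARP1 and 52.9% of the 17 in KARPAS, and 19 of 38 genes were marked in neither. Over all genes both lists marked 4188, which is 70.7% of those in ARP1 and 47.2% of those in KARPAS, and 46.9% were marked in neither. Marked in ARP1 only were SDF2L1 (200 bp) and EDEM3 (978 bp), against 8.68% of genes. Marked in KARPAS only were P4HB, SSR1, SYVN1, HERPUD1, EDEM1, DERL1, ATF4 and DDIT3, against 23.4% of genes. Of 14 genes measured, 5 were longer and 8 shorter in ARP1 than in KARPAS, against 22.8% and 63.9% of 6725 genes. The lists held 90964 regions over 44.8 Mb in ARP1 and 55867 over 25.5 Mb in KARPAS, from 11.9 and 37.4 M tags, so a shorter list covered more of these genes.

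The KARPAS regions lay at genes of every role but the secreted factors. They marked 2 of 9 chaperones, 3 of 4 isomerases, 2 of 9 translocon genes, 5 of 9 degradation genes and 5 of 5 sensors and factors. Of all genes 44.4% were marked. The groups are small and differ in gene length, and role was not tested apart from it. EDEM1 had 0 bp in ARP1 and 1834 bp in KARPAS, SYVN1, the ubiquitin ligase of the complex, 0 bp and 1332 bp, and DERL1 0 bp and 1278 bp. ERN1 had 1568 bp in 5 regions in ARP1 and 4677 bp in 10 regions in KARPAS, and EIF2AK3 200 bp in ARP1 and 2029 bp in KARPAS. The highest placed KARPAS regions at these genes were in SYVN1, chr11:65132110-65132961, rank 2672 of 55867 with a fold of 17.8, and EDEM1, chr3:5197156-5198012, rank 2814 with a fold of 17.5. DDIT3 had 0 bp in ARP1 and 735 bp in KARPAS, SSR1 0 bp and 438 bp, and P4HB 0 bp and 262 bp. HSP90B1 had 213 bp in ARP1 and 1093 bp in KARPAS, and PDIA3 334 bp and 834 bp. In the other direction DNAJC3 had 1296 bp in ARP1 and 712 bp in KARPAS, and SEC63 516 bp and 249 bp. PDIA6 had 4617 bp in ARP1 and 1257 bp in KARPAS, and ATF6 1226 bp and 388 bp, both in dense bins.

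Of the 17 KARPAS genes 13 (76.5%) were also marked in the ARP1 HA-tagged line, against 57.3% of all genes marked in KARPAS. Among the 8 KARPAS-only genes these were SSR1, EDEM1, SYVN1, HERPUD1, ATF4 and DDIT3. The untagged line marked all of these but SSR1, and SYVN1 had 303 bp in the tagged and 456 bp in the untagged line, HERPUD1 335 and 410 bp, and ATF4 516 and 518 bp. At HERPUD1 the tagged region, chr16:56945036-56945370, was a different one from that of KARPAS. The KARPAS region there, chr16:56931424-56931899, ended on the upstream end of the printed promoter. In KARPAS 1 of 37 regions with a placed start covered it, that of SYVN1, and 5 lay within 1 kb. Of the 42 KARPAS regions 30 (71.4%) overlapped an H3K27ac region of ARP1 WT cells, against 30.2% of all KARPAS regions. All KARPAS regions include those outside genes, while every window here holds ARP1 H3K27ac, so the higher share is not read as a trait of these genes. H3K27ac was not profiled in KARPAS cells. Scaled by total covered length, longer genes made up 14.4% of all calls between ARP1 and KARPAS, against 26.3% as called, and 3 of the 38 genes were longer and 8 shorter. The scaled medians were -2.27 for the 38 genes' measured members and -2.42 for all, against -1.31 and -1.53 as called.

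No KDM6A or HA region was listed at 7 genes in any of the 5 libraries. The 7 were DNAJB11 (an HSPA5 co-chaperone), PDIA4, SEC62, SSR3, SSR4, DERL2 and CRELD2. All 7 carried H3K27ac in KO, JmjD-dead and WT cells, with 1416 bp (SEC62) to 4413 bp (SSR4) in KO.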

How the data were processed

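The data are 16 region lists from human myeloma lines, 1 per library, with 1 library a group; 4 mouse libraries of the series were not used. The build was GRCh38 and the tools named were Bowtie2, Trimmomatic, MACS2 2.1.2, FastQC and MultiQC, per the submitters' processing notes. Per the file headers, the authors called regions in each library without a control at a q-value of 0.05, with MACS 2.2.7.1 for input, H3K27ac and H3K27me3 and 2.1.1.20160309 for the others. HA and KDM6A libraries held single tags and the others fragments, per the file headers, with redundant rates of 0.36 to 0.61 for input, H3K27ac and H3K27me3, 0.04 to 0.05 for KDM6A and HA, and 0.00 for H3K4me1. For every region the deposited lists hold the −log10 q-value and −log10 p-value, the fold ratio over the local background and the pileup signal (coverage) at the summit, all made by the authors and not recomputed.

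Rows with the same coordinates were merged into 1 region, and chromosomes 1 to 22 and X were kept. Gene positions came from RefSeq (GRCh38.p14). Covered length was taken over the gene and 2500 bp either side. A gene was measured with at least 500 bp in 1 of 2 libraries, ratios were taken after adding 100 bp, and longer or shorter means past 1.5 times. Regions count as overlapping from 1 bp. Gene starts were placed for 35 of 38 genes. With 1 library a group no test was made, and the depth gives no interval for a covered length. Alternatives were equal list lengths, a stricter −log10 q (5 or more), gene ends only, 10 kb either side, no regions on input, no dense bins, scaling by covered length, a 500 bp pseudocount and no filter. H3K27me3 was also recounted without regions on H3K27ac, and KDM6A without regions on untagged HA.

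The genes and lists were chosen with earlier results of these data known. All 38 genes are accounted for. The rule for genes named in a comparison was those marked in 1 library only and up to 8 with the largest ratios a direction, with up to 4 other pathway genes. The chaperones and sensors named under H3K27ac were also fixed. For KDM6A and HA, genes with a region absent from the control, or that differ between ARP1 and KARPAS, are named. Python 3.11.15 with pandas 2.3.3, numpy 2.4.6 and matplotlib 3.10.9 was used, and 5 of 5 steps returned the known answer when tested on simulated data.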

Additional observations from a re-analysis of the deposited data

How the results depend on the processing

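Of 167 counts recomputed under the alternatives, 145 stayed within 1.5 times and 22 did not. The counts of genes longer or shorter were as follows. For H3K27ac in KO against WT cells, 4 genes became 2 at equal list lengths and 2 over gene ends. For H3K27me3 in KO, 8 became 1 at a −log10 q of at least 5, 15 with no filter and 3 without regions on H3K27ac. For H3K27me3 in JmjD-dead cells, 12 became 3 at that q, 6 over gene ends, 6 when scaled by covered length, 23 with no filter and 6 without regions on H3K27ac. For KDM6A in KO, 7 became 4 at that q and 2 over gene ends. For HA, 17 became 7 over gene ends and 26 with no filter, and for ARP1 against KARPAS 13 became 4 over gene ends. The counts marked in 1 library only became 7 (KO) and 3 (JmjD-dead) for H3K27me3 at that q, against 11 and 15. For H3K4me1 they became 31 at that q and 19 over gene ends, against 11, and for KDM6A in KO 10 with 10 kb either side, against 6. WT KDM6A regions with no KO region marked 5 genes over gene ends and 13 with 10 kb either side, against 8. The causes were not tested. Of 76 medians, 34 stayed within 0.2 on the log2 scale. No paired analysis was possible because each group has 1 library and the labels give no replicate numbers. Depth limits H3K27me3 and input most, with 5.03 to 10.4 and 0.223 to 0.725 M fragments.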
